A study of Arabidopsis thaliana with 4 samples.

Results

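Regions of accessible chromatin called in both wild-type (WT) libraries and in neither mbd9-3 library numbered 1729 of 64218 merged regions in Arabidopsis flowers, or 2.69%. Peaks of the 4 libraries that shared at least 1 bp were merged into regions, and the 1729 were selected from the peak calls themselves. Their presence in WT, absence from mbd9-3 and peak strength are therefore descriptions and carry no test. ATAC-seq, which reads open DNA through the sites where Tn5 transposase can insert, was performed on nuclei from flowers of Columbia-0 plants kept for 4 weeks in a long-day greenhouse. There were 2 libraries from WT plants and 2 from mbd9-3 plants, which carry a mutant allele of the gene for methyl-CpG-binding domain protein MBD9. The labels name no other allele or treatment and do not say whether the replicates were separate plantings, and the comparison asked how open chromatin differs in the mutant.

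Open chromatin in plants lies mostly just upstream of transcription start sites (TSS), where nucleosomes are depleted and transcription factors bind. MBD9 associates with the SWR1 chromatin remodeler, which places the histone variant H2A.Z in the nucleosomes that flank these sites. In Arabidopsis, weakly expressed genes that respond to the environment typically carry H2A.Z along the gene body, while housekeeping genes carry it mainly near the 5′ end. Flowering time is a trait that changes when SWR1 subunits are lost.

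The sequences of 6 of the regions are shown because they illustrate the kinds of position among the named members: a strong region upstream of a gene, an intergenic one, one inside a coding exon, 2 promoter regions next to a TSS, and one at a flowering time repressor. By fold enrichment over local background, ranked within each WT library and averaged, all 6 are stronger than the median member. In WT replicate 1 alone MAF3 was weaker, with a fold of 2.55 against a median of 2.94. Positions are in TAIR10, letters run 5′ to 3′ on the plus strand, and bases of annotated untranslated regions were left out. For AT3G27910 the 300 bp around the summit are shown. Capitals mark matches, on either strand, to 9 short motifs searched in every region. The motifs were the G-box CACGTG, the telo-box AAACCCTA, the TCP factor site TGGGCC, the repeat GAGAGAGA, the TATA motif TATAAA, the W-box core TTGACC, the evening element AAAATATCT, the auxin response element TGTCTC and the I-box core GATAAG, and none of them contains another.
AT3G27910 (chr3:10358722-10359021): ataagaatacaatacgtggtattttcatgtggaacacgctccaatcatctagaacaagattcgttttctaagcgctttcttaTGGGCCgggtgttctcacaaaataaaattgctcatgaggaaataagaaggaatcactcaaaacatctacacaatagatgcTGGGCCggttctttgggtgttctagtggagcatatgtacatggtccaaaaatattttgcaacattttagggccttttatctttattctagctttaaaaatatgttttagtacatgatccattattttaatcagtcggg
PHB (chr2:14646817-14646994): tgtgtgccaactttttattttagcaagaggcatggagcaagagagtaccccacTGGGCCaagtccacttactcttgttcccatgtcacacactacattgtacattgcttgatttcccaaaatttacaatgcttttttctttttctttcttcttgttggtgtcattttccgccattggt
BEE3 (chr1:27761225-27761333): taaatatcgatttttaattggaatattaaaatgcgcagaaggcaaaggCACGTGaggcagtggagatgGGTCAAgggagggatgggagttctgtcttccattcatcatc
CSD1 (chr1:2826927-2827059): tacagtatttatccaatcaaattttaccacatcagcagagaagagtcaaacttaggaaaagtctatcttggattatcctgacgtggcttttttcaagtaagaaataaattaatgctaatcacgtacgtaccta
EDA31 (chr3:3076531-3076670): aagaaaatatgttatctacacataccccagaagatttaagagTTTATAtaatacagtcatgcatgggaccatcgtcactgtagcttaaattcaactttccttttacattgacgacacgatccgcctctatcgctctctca
MAF3 (chr5:25986551-25986683): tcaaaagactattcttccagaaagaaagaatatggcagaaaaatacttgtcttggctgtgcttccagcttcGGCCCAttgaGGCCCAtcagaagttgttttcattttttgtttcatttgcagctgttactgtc
The region of AT3G27910 held TGGGCC in 2 places and that of MAF3 held it as GGCCCA in 2 places. BEE3 was the only one of the 6 with a G-box, and CSD1 had none of the 9 motifs. A match describes the letters in the window and is neither a binding site nor a cause.

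The lists held between 37609 and 45208 peaks per library. The lowest local background in a list, which tracks depth, was 1.75 tags in WT replicate 1, 2.15 in WT replicate 2, 1.72 in mbd9-3 replicate 1 and 1.79 in mbd9-3 replicate 2. WT replicate 2 was thus the deepest by this measure, which assumes equal tag extension across libraries. Read totals were not used here. A region without a listed peak is a region in which the signal stayed under the caller's threshold, and the signal under that threshold is not in the lists. The part of depth in the calls was not tested. Intervals given for shares are 95% Wilson intervals and cover counting error only. At genes that mark floral organs and meristems, peaks from at least 1 WT library lay at 16 of 19 and from at least 1 mbd9-3 library at 18 of 19. Of all protein-coding genes, 83.0% had such a WT peak and 82.1% such an mbd9-3 peak. Peaks do not report transcripts and so do not test the tissue label.

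Most of the regions were weak in both WT libraries. Fold enrichment over local background, the ratio deposited by the authors, had a median of 2.94 in WT replicate 1, with a range from 1.95 to 14.4. In WT replicate 2 the median was 3.00, with a range from 1.85 to 12.7. The number of tags at the summit, solved from the fold and its p-value, had a median of 8 over a background of 1.83 in WT replicate 1 and of 10 over a background of 2.29 in WT replicate 2. In WT replicate 1, 58.5% of the regions had at most 8 tags at the summit, and in WT replicate 2, 61.7% had at most 10. The deposited −log10 q-value was at least 1.3 in both libraries for 1108 regions (64.1%), at least 5 in both for 40 (2.31%) and at least 10 in both for 4. The regions were 136 bp wide at the median (65 to 449 bp), against 253 bp for the 19546 regions called in all 4 libraries.

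**Figure D1:**
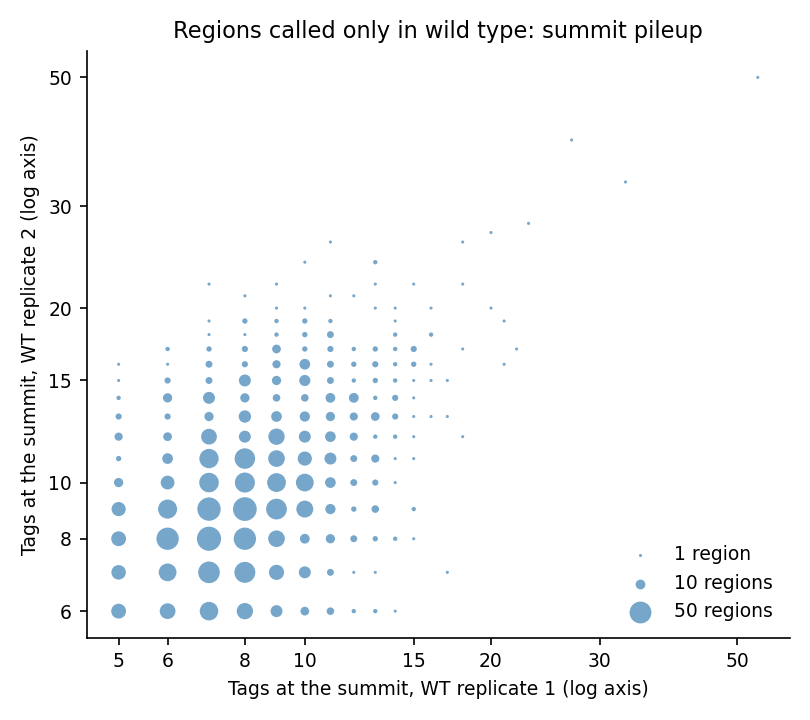
Tags at the summit in WT replicate 1 (x axis, log scale) and WT replicate 2 (y axis, log scale) for the 1729 regions called only in WT, with the area of a point proportional to the number of regions. The mass of regions sits between 6 and 12 tags in both libraries, and a few reach 20 tags or more in both.

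To set strength on one scale, each peak was given the percentile of its fold enrichment within its own list. The median percentile of the WT-only regions was 30.4 in WT replicate 1 and 24.0 in WT replicate 2, and the mean of both had a median of 28.3. For the other sets the mean was taken over the libraries that called each region. Its median was 27.0 for the 986 regions called only in mbd9-3 and 37.6 for the 3871 regions called in both WT libraries and 1 mbd9-3 library. For regions called in all 4 it was 70.1. The summits of the WT libraries lay 23 bp apart at the median, and 74.1% lay within 50 bp. For regions called in all 4 libraries the WT summits were 14 bp apart and 79.8% lay within 50 bp. Across regions, the fold enrichments of the WT libraries had a Spearman rho of 0.229 over the 1729 regions and 0.790 over the 19546. These regions share libraries and the first set spans a narrow range of folds, so both values are descriptions.

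Other pairs of libraries left regions of their own. Called only in mbd9-3 were 986 regions, or 1.54% of all merged regions. The crossed pairs, each with 1 WT and 1 mbd9-3 library, gave 775 regions (1.21%) for WT replicate 1 with mbd9-3 replicate 2 and 1459 regions (2.27%) for WT replicate 2 with mbd9-3 replicate 1. The pairs that share a replicate number gave 2665 (4.15%) for the libraries numbered 1 and 1676 (2.61%) for those numbered 2. The order of these counts changed when the lists were cut to the length of the shortest, that of mbd9-3 replicate 2. The cut also dropped the peaks with the weakest p-values from the longer lists, and the part of list length was not tested. With the top 37609 peaks of every list, an alternative added after seeing the data, the WT pair had 1095 regions and the mbd9-3 pair 1118. The crossed pairs then had 889 and 830, and the libraries numbered 1 and 2 had 1610 and 1700. Each count is a single value, so no spread stands behind either order.

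Of the 25146 regions called in both WT libraries, 6.88% were in neither mbd9-3 list. The mirror share was 4.30% of the 22918 regions of the mbd9-3 pair, and the crossed pairs gave 3.34% and 5.98%. The share fell steeply with strength. Among both-WT regions it was 38.7% (33.8 to 43.9%) between 0 and 10 on the percentile scale, 24.4% (22.5 to 26.4%) between 20 and 30, 7.99% (6.99 to 9.11%) between 40 and 50, and 0.353% (0.202 to 0.616%) between 70 and 80. Above 80, it was 1 of 3612 and then 3 of 3730 regions. The mbd9-3 pair also fell, from 35.4% to 0.228% over the same bins, and was lower than the WT pair in between, with 15.6% (13.9 to 17.4%) between 20 and 30 and 4.66% (3.91 to 5.54%) between 40 and 50. The crossed pairs went from 31.4% and 42.7% to 0.0631% and 0.269%. The crossed pair that holds WT replicate 2 lay close to the WT pair in most bins.

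**Figure D2:**
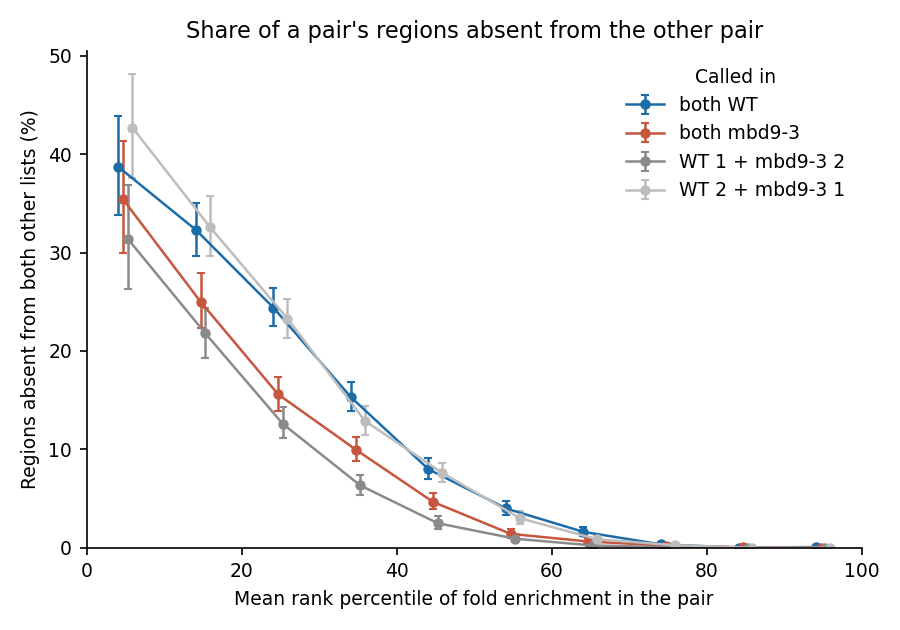
Share of the regions called in both libraries of a pair that are in neither of the other lists (y axis, %), in 10 bins of the mean rank percentile of fold enrichment (x axis), for the WT pair, the mbd9-3 pair and the crossed pairs. Bars are 95% Wilson intervals; all 4 curves fall from between 31.4% and 42.7% in the lowest bin to 0.353% or less between 70 and 80.

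The rule also has an edge in space. The 2 members nearest to an mbd9-3 peak, at chr3:22321338-22321428 and chr5:13925691-13925847, abutted one with 0 bp between them, at folds of 2.48 and 3.06 in the WT libraries for the first and 3.28 and 2.86 for the second. Just outside, a region at chr2:6991107-6991239 shared 1 bp with an mbd9-3 peak and one at chr2:15574298-15574522 shared 2 bp, with folds of 2.55 and 2.54 and of 3.28 and 2.54 in WT. Members within 10 bp of an mbd9-3 peak numbered 18, and 19 regions were kept out by an overlap of up to 10 bp.

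Members were spread over all 5 chromosomes. Chromosome 1 held 484, chromosome 2 held 256, chromosome 3 held 324, chromosome 4 held 246 and chromosome 5 held 419. Per Mb this was 15.9, 13, 13.8, 13.2 and 15.5 regions in that order. As a share of all regions on the chromosome it ran from 2.45% on chromosomes 2 and 4 to 2.89% on chromosome 1, around the overall 2.69%. In 107 of 121 bins of 1 Mb with at least 300 regions, the share ran from 0.988% to 5.35%, with a median of 2.55%. No bin held more than 34 members and 4 held none.

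Few members lay in gene-poor sequence. In bins of 200 kb with under 50% of the mean of 45.9 protein-coding gene starts, which make up 15.3% of all bases, lay 69 members, or 3.99% (3.17 to 5.02%). For regions called in all 4 libraries the share was 3.56% (3.31 to 3.83%), for the mbd9-3-only regions 7.0% (5.57 to 8.76%), and for the crossed pairs 4.39% (3.16 to 6.07%) and 3.08% (2.31 to 4.10%). The libraries numbered 1 had 8.33% and those numbered 2 had 2.98%. Of all merged regions, 5.48% lay in these bins. Across classes of gene density the share of regions that were members ran from 1.36% (0 to 9 gene starts) to 2.87% (50 to 59) without a steady trend, with 2.31% at 10 to 19, 1.78% at 20 to 29 and 2.04% in the densest class.

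By the position of the strongest summit, promoters, meaning the 1 kb before a protein-coding TSS, held 561 members, or 32.4% (30.3 to 34.7%). Coding exons held 25.4% (23.5 to 27.6%), intergenic sequence 13%, 5′ untranslated regions (UTRs) 12% (10.5 to 13.6%), the 1 kb downstream of genes 7.11%, introns 4.22%, 3′ UTRs 3.59% and other genes, such as those of noncoding RNAs, 2.26%. Promoters make up 21.3% of all bases, coding exons 24.4% and introns 13.8%. Regions called in all 4 libraries had 45.0% in promoters, 17.0% in 5′ UTRs and 7.81% in coding exons. Members thus lay between all bases and the shared regions in promoter and 5′ UTR share, with a share of coding exons close to that of all bases.

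The other one-sided sets differed in these shares. Regions only in mbd9-3 had 25.5% (22.8 to 28.3%) in promoters and 34.6% (31.7 to 37.6%) in coding exons. The crossed pairs had 27.6% and 31.7% in promoters and 35.5% and 29.1% in coding exons. The pairs that share a number lay farthest apart, with 18.6% in promoters and 54.5% in coding exons for the libraries numbered 1, and 39.9% and 9.19% for those numbered 2. The promoter share of the WT-only regions lay within the interval of 29.3 to 34.1% of the crossed pair with WT replicate 2. Its 5′ UTR share of 12% lay above the 7.51%, 7.23% and 8.77% of the mbd9-3-only and crossed sets, whose intervals ended at 9.32%, 9.27% and 10.3%, and between the 2.93% and 19.6% of the pairs numbered 1 and 2. The part of what those pairs share in any of these shares was not tested.

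**Figure D3:**
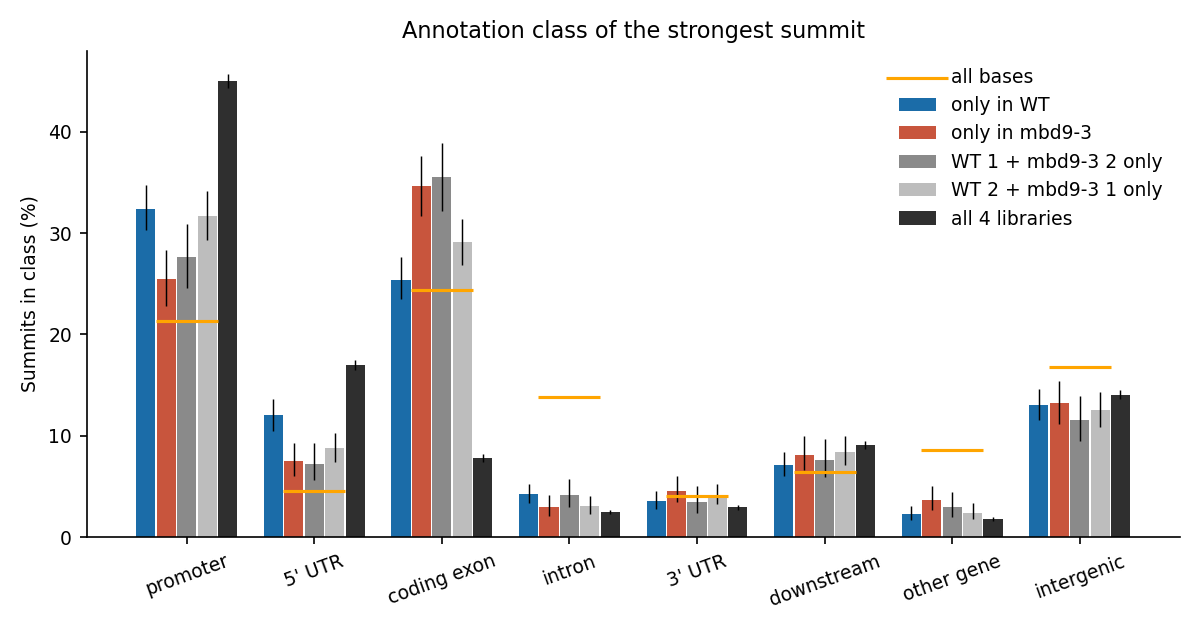
Share of regions with the strongest summit in each of 8 annotation classes (y axis, %), for regions called only in WT, only in mbd9-3, in exactly 1 crossed pair and in all 4 libraries, with 95% Wilson intervals; orange lines are the share of all bases. Regions only in WT have 32.4% in promoters and 25.4% in coding exons, against 45.0% and 7.81% in all 4 libraries.

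The class of a member went with its strength. Among the weakest by mean percentile (576 regions, up to 22.0), 37.7% (33.8 to 41.7%) lay in coding exons, 26.7% in promoters and 8.16% in 5′ UTRs. Among the strongest (577 regions, from 34.6), 11.1% (8.78 to 13.9%) lay in coding exons, 37.8% in promoters and 17.2% in 5′ UTRs. The strongest members were thus distributed more like the regions called in all 4 libraries.

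The summit lay 791 bp from the nearest TSS at the median, and within 200 bp of one for 23.5% (21.6 to 25.6%). Shared regions lay 394 bp away, with 42.0% within 200 bp, and mbd9-3-only regions 1007 bp, with 14% (12 to 16.3%). The crossed pairs had 15.5% and 19.5% within 200 bp, and the pairs numbered 1 and 2 had 7.43% and 37.2%. Of the members, 114 had the summit in the 100 bp upstream of a TSS and 134 in the 100 bp downstream, which are 6.59% and 7.75%. In regions called in all 4 libraries these bins held 15.8% and 13.8%.

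**Figure D4:**
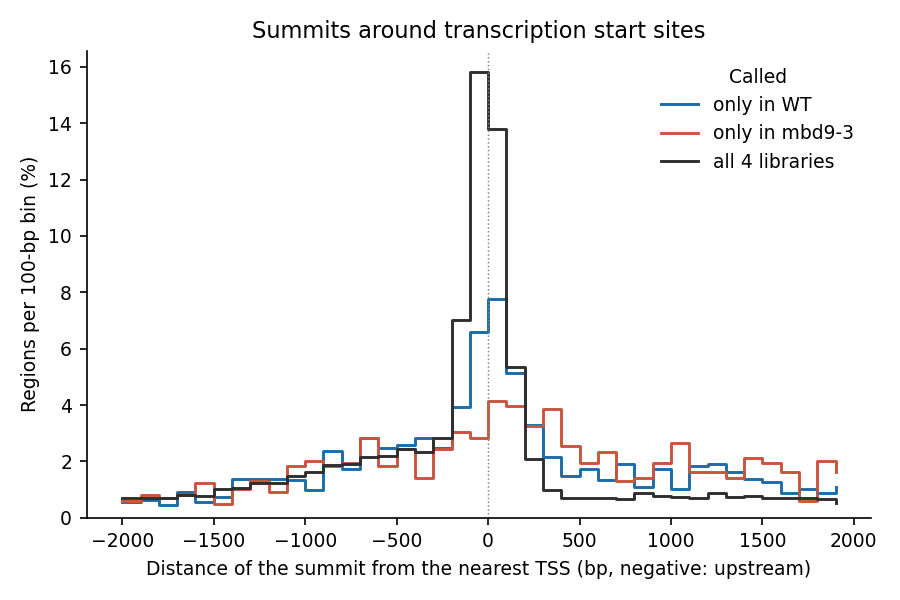
Share of regions per 100-bp bin (y axis, %) by distance of the strongest summit from the nearest TSS (x axis, bp, negative upstream), for regions called only in WT, only in mbd9-3 and in all 4 libraries. The WT-only regions peak at 7.75% in the bin just downstream of the TSS, the shared regions at 15.8% in the bin just upstream.

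Most members had mbd9-3 peaks close by. The nearest mbd9-3 peak was 550 bp away at the median, 168 members (9.72%) had one within 100 bp, and 69.4% (67.2 to 71.5%) had one within 1 kb. In mirror, the mbd9-3-only regions lay 466 bp from a WT peak, with 74.7% (71.9 to 77.4%) within 1 kb. The crossed pairs lay 402 and 536 bp from a peak of the other libraries. The nearest region called in all 4 libraries was farther from the members, at a median of 1569 bp. The stretch around a member without any mbd9-3 peak was 3431 bp at the median, and it exceeded 10 kb for 119 members (6.88%), with 53684 bp the longest.

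GC content, which the rule did not use, had a median of 37.3% in the 201 bp around the summit, with quartiles of 33.3% and 43.3%. The shared regions had 38.8%, the mbd9-3-only regions 40.8% and the crossed pairs 41.3% and 38.8%. Windows of the same length taken every 10 kb had 36.3%. The libraries numbered 1 and 2 stood farthest apart, with 46.3% and 35.3%. In promoters the members had 35.3% and the shared regions 38.3%, in 5′ UTRs 36.8% and 39.3%, and in coding exons 45.3% and 46.3%. Members held 5.69 CG dinucleotides per window on average and the shared regions 6.75.

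**Figure D5:**
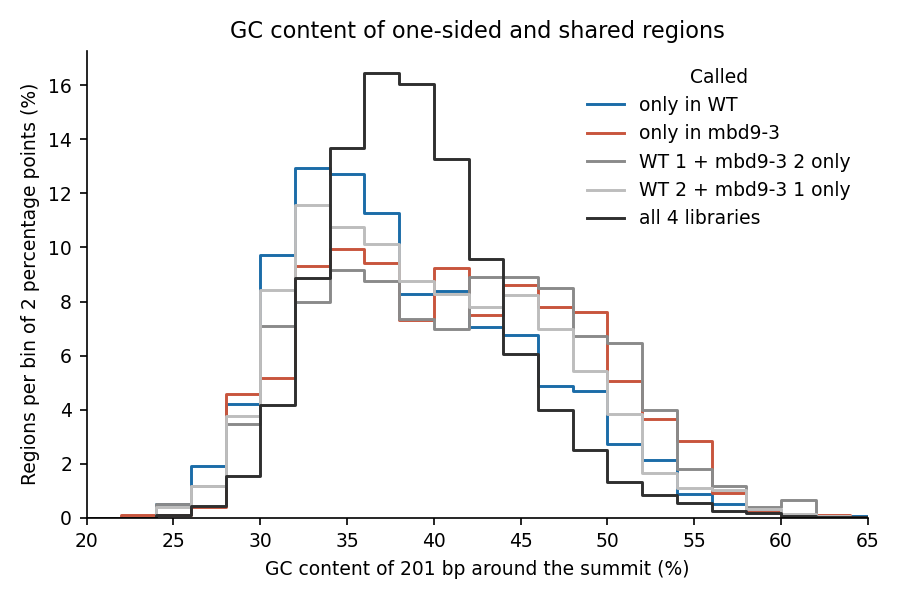
GC content of the 201 bp around the strongest summit (x axis, %) against the share of regions per bin of 2 percentage points (y axis, %), for regions called only in WT, only in mbd9-3, in exactly 1 crossed pair and in all 4 libraries. Regions only in WT peak at lower GC than those in all 4 libraries, with medians of 37.3% and 38.8%, and all one-sided sets have a broader upper side.

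The G-box CACGTG, read by bZIP and bHLH factors, lay in 81 members, or 4.68% (3.79 to 5.79%), against 16.6% (16.1 to 17.1%) of shared regions and 2.17% of windows every 10 kb. The mbd9-3-only regions had it in 7.81% (6.29 to 9.65%) and the crossed pairs in 7.35% (5.72 to 9.41%) and 6.65% (5.48 to 8.04%). TGGGCC lay in 175 members, or 10.1% (8.79 to 11.6%), against 25.4% of shared regions, 5.27% (4.04 to 6.85%) of mbd9-3-only regions, 6.32% and 8.50% in the crossed pairs and 2.77% of windows. GAGAGAGA lay in 7.75% (6.58 to 9.11%) of members, 8.96% of shared regions, 4.77% (3.60 to 6.28%) of mbd9-3-only regions, 7.10% and 6.24% in the crossed pairs and 3.00% of windows. Of these 3 motifs, the G-box had a lower share in WT-only than in mbd9-3-only regions, and the others had a higher one. Regions of a set share their 2 libraries and are not replicates, so a difference between genotypes was not tested. The pairs numbered 1 and 2 lay farther apart for TGGGCC (4.69% and 13.3%) and GAGAGAGA (3.98% and 9.96%) and closer together for the G-box (6.94% and 5.85%). TATAAA was found in 23.5% of members, 24.4% of shared regions and 25.8% of windows. For the 5 motifs that remain, the share of members was between 0.983% for AAAATATCT and 14.7% for TGTCTC. Shared regions had 1.27% and 13.8% for these motifs, mbd9-3-only regions 0.609% and 15.5%, and windows 0.923% and 11%. TTGACC lay in 10.9% of members, 11.3% of shared regions, 12.5% of mbd9-3-only regions and 8.25% of windows. AAACCCTA lay in 2.31%, 3.60%, 2.03% and 2.66% in the same order. The members' interval for GATAAG was 8.68 to 11.5%, beside 11.5% of shared regions and 10.6% of both mbd9-3-only regions and windows.

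The strongest members stood at scattered genes with unlike functions. AT2G06845, a gene annotated as related to beta-galactosidases, had the highest mean percentile (98.4). Its summit lay in the 5′ UTR, 508 bp downstream of the TSS, with 54 tags in WT replicate 1 and 50 in WT replicate 2. A weaker member, with a mean percentile of 28.8, lay in its promoter, and no mbd9-3 peak lay from 1 kb upstream to its end. AT3G27910, which encodes a protein with galactose oxidase and kelch repeats, came next (95). Its promoter region, shown above, had 33 tags in each WT library. AT1G57620, a p24-family gene of the secretory pathway, had 2 members in its promoter, 324 and 737 bp upstream, with mean percentiles of 94.6 and 73.3. An mbd9-3 region was called elsewhere at that gene.

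Next in order were regions farther from genes. A 114-bp region at chr2:4942663-4942776 lay 18207 bp from the nearest protein-coding gene, AT2G12290, and had 13 and 24 tags in the WT libraries. A region 2525 bp upstream of PHB, which encodes a homeodomain-leucine zipper factor that sets the upper side of lateral organs, had 23 and 28 tags. At PHB itself 4 mbd9-3 regions were called. At AT3G29760, a haloacid dehalogenase-like gene, the member lay 4084 bp past the gene and only 19 bp from an mbd9-3 peak, with 18 and 26 tags. Near PHL1, which encodes a MYB factor of the phosphate starvation response, the member lay 2735 bp beyond the gene with 11 and 26 tags. It sat in the longest stretch without an mbd9-3 peak, 53684 bp, in which each WT library listed 2 peaks.

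Of the remaining strongest members, one lay 371 bp downstream of WNK1, a WNK-type protein kinase, with 20 and 27 tags. BEE3, a bHLH factor gene induced by brassinosteroids, had its member in a coding exon, 1358 bp downstream of the TSS, with 16 and 15 tags. The member near the metacaspase gene MC4 had 15 and 16 tags and its summit 1004 bp upstream of the TSS, within a noncoding gene. CSD1, which encodes a cytosolic copper/zinc superoxide dismutase, had its member 31 bp upstream of the TSS with 14 and 16 tags. This was the only WT region at CSD1, no mbd9-3 peak was listed there, and the stretch without one measured 13188 bp.

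Taking each gene with the 1 kb before its TSS, 1596 of 27444 protein-coding genes had a member, or 5.82%. One member lay at 1551 genes, 2 lay at 45, and no gene had 3. In promoters, 748 genes (2.73%) had a member. An mbd9-3 peak lay at 1328 of the 1596 genes (83.2%, beside 82.1% of all protein-coding genes), and a region called only in mbd9-3 at 55 (3.45%, beside 3.20% of all). Conversely, 1361 members (78.7%) lay at a gene and 368 at none, and 86 lay in promoters shared by 2 genes. The window was 3516 bp at the median for genes with a member and 3078 bp for all, and a longer window offers more room for a region.

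A member in the promoter and no mbd9-3 peak anywhere at the gene was found for 154 genes, or 0.561% of all. They are part of the 748 genes with a promoter member. Of all 27444 protein-coding genes, 22530 (82.1%) had an mbd9-3 peak and the rest had none, so lacking one is not particular to these genes. After AT3G27910 and CSD1, the strongest was at PROPEP5, which encodes a precursor of a danger-signal peptide, 425 bp upstream of the TSS with 13 and 17 tags in the WT libraries. CK1, a casein kinase gene, had its member 142 bp upstream with 13 and 17 tags. EDA31, a homeodomain-like factor gene, had it 159 bp upstream with 11 and 15 tags, and the stretch without an mbd9-3 peak was 10496 bp. At CPC, a small MYB protein gene that directs root hair and trichome patterning, it lay 661 bp upstream with 14 and 17 tags.

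AT3G13940, annotated as a DNA-directed RNA polymerase, had its member 91 bp upstream of the TSS with 10 and 16 tags. At CIP111, a calmodulin-interacting ATPase gene, it lay 61 bp upstream with 12 and 13 tags. AT3G57750, a protein kinase gene, had it 126 bp upstream with 13 and 20 tags. OFP9, an OVATE family repressor gene, had it 980 bp upstream with 11 and 16 tags and 97 bp from an mbd9-3 peak. That region also lay in the promoter of the divergent neighbour MEE51, a phosphofructokinase family gene with 6 mbd9-3 regions. It was the only region of this group that was shared by neighbouring promoters. Among the 154 genes, 4 had 2 members each and are named here after their values were seen: AT2G06845, PDE312, CXE13 and AT3G48710, the last pair sharing both members.

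Over 4 lists of genes that the study's subject touches, 2 of 53 had a member (3.77%, 1.04 to 12.8%), which is near the 5.82% of all genes at this list size. Of 15 genes for SWR1 and associated proteins, 0 had one, as did 0 of 3 H2A.Z genes and 0 of 19 floral organ and meristem genes. The floral list leaves AP1 to the flowering time genes. Every SWR1 and H2A.Z gene on the lists had peaks in both genotypes. Most genes did, as 83.0% of all protein-coding genes had a WT peak and 82.1% an mbd9-3 peak. Of 16 flowering time genes 2 had a member. MAF3, a MADS-box repressor of flowering related to FLC, had its member 717 bp upstream of the TSS, with 6 tags in WT replicate 1 and 15 in WT replicate 2, and 53 bp from an mbd9-3 peak. AP1, which specifies floral meristems and sepals and petals, had a weak one 413 bp upstream, with 6 and 8 tags and a mean percentile of 3.08. MAF3 had 3 WT and 2 mbd9-3 regions, and AP1 had 5 and 3.

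Most groups of genes formed by words in the annotated product had shares near 5.82%. A member lay at 88 of 1461 transcription factor genes (6.02%), 92 of 1375 protein kinase genes (6.69%) and 41 of 562 transporter genes (7.30%, 5.42 to 9.75%). The highest share was 9.02% for auxin response genes (12 of 133, 5.24 to 15.1%) and the next 8.49% for ribosomal protein genes (9 of 106, 4.53 to 15.4%). Low shares were found for genes of defensin-like peptides (5 of 224, 2.23%, 0.957 to 5.12%) and F-box proteins (22 of 652, 3.37%, 2.24 to 5.06%). At these, 57.6% and 64.3% of genes had a WT peak of any kind, against 83.0% of all genes. The windows of these groups were also short, with medians of 1871 and 2366 bp against 3078 bp for all genes. Auxin response genes, with the highest share, had a median window of 1984 bp. The part of window length was not tested. Of 154 genes for NLR immune receptors 5 had a member (3.25%, 1.39 to 7.37%), an interval that includes the 5.82% of all genes. None had it in the promoter, where 2.73% of all genes had one.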

How the data were processed

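Reads were trimmed with Trim Galore and mapped to TAIR10 by the authors (Bowtie in the study's methods, Bowtie2 in the submitters' processing notes), and organelle and duplicate reads were removed with SAMtools. The ATAC-seq peak caller and its options are not given in the sources used here. The deposited lists have the narrowPeak layout, 1 per library. The authors deposited a score, a fold enrichment over local background (a ratio), a −log10 p-value and a −log10 q-value for each peak, and another column with the summit position. Fold enrichments of lists called separately were compared only as ranks within a list.

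Summit tags and background were solved from fold, taken as (tags + 1)/(background + 1), and the Poisson upper-tail p-value, which matched within 0.0001 for 99.9% of rows. Peaks sharing at least 1 bp were merged, and 1 strongest summit per region, from the libraries that called it, was annotated in the order promoter, 5′ UTR, coding exon, intron, 3′ UTR, downstream, other gene, intergenic. Gene models and sequence were RefSeq's TAIR10.1, whose chromosomes 1 to 5 have the lengths of TAIR10. Shares have 95% Wilson intervals, as counting error only, and no test was run, since the regions were chosen by their calls. Merging and the tag solution were tested on simulated data.

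The members, lists and named genes were chosen with earlier results of these data known. Named genes were those nearest to the 12 strongest members by mean percentile, the 10 strongest genes with a promoter member and no mbd9-3 peak, genes with at least 3 members (none), list genes with a member, neighbours that share a promoter member, and the 2 regions on each side of the rule's edge. Alternatives were stricter q-values, equal list lengths, other overlap and interval rules, other promoter, bin, gene and distance limits, and leaving out each library. Computations used scipy 1.17.1, pandas 2.3.3 and numpy 2.4.6 under Python 3.11.15, and plots matplotlib 3.10.9.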

Additional observations from a re-analysis of the deposited data

How the results depend on the processing

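Each group had 2 libraries, depth differed, and signal under the calling threshold was not seen. No paired analysis was possible because no test was run on regions chosen by their calls, so the pairs that share a replicate number are only described. The strength percentile and the share of both-WT regions absent from mbd9-3 were recomputed under alternatives chosen after seeing the data. Over all alternatives, 37 values stayed within their counting interval, the spread of the WT libraries or 1.5 times the count, and 64 moved. The spread of the WT libraries in median GC was 0, so any change in GC counted as moved.

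With peaks of −log10 q of at least 1.3 in every list, promoters held 35.0% of WT-only regions, 62.8% had an mbd9-3 peak within 1 kb, median GC was 36.8%, the median percentile was 34.8 and 6.47% of both-WT regions were absent from mbd9-3. At −log10 q of at least 5 in every list there were 984 regions at 972 genes, and they included 40 of the 1729. They had 45.3% in promoters, 2.64% in gene-poor bins, 36.8% GC, a percentile of 69.5 and 8.07% of both-WT regions. An mbd9-3 peak lay within 1 kb of 31.8%. As in the other cuts made to every list, this share counts only mbd9-3 peaks that passed the cut. The 69.4% reported for the 1729 counts all mbd9-3 peaks, so these shares are not like for like. With presence from −log10 q of at least 5 and absence from the full lists, 40 regions at 26 genes were left, with 50% in promoters, 7.50% in gene-poor bins, 72.5% near an mbd9-3 peak, 34.3% GC, a percentile of 65.5 and 0.328% of both-WT regions. With the top 37609 peaks of every list there were 1095 regions at 1008 genes, with 35.8% in promoters, 65.4% near an mbd9-3 peak, 36.3% GC, a percentile of 36.6 and 4.89%. Requiring 50% of the shorter interval to be shared gave 71.9% near an mbd9-3 peak, 37.8% GC and 7.48%, and windows around summits gave 37.8% GC.

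Promoters of 500 bp or 2000 bp held 20% or 49.8% of the regions. Bins under 25% of the mean number of genes held 1.39%. Promoters alone gave 748 genes. An mbd9-3 peak lay within 500 bp of 46.8% and within 2 kb of 87.9%. Whole regions had 40% GC.

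Leaving out each library in turn gave 3598 to 10783 regions, 3203 to 8396 genes, 21.6 to 37.2% in promoters and 2.82 to 6.95% in gene-poor bins. It gave 54.6 to 69.4% near an mbd9-3 peak, 36.3 to 42.3% GC and a median percentile of 16.8 to 34.4. Without mbd9-3 replicate 1 or 2, 14.3% or 14.9% of both-WT regions were absent from the remaining mbd9-3 list. Without WT replicate 1 or 2, the share was 21.8% or 27.9% of the regions of the remaining WT library, which is an unlike set. Fewer lists make the rule easier to meet, so these sets contain all 1729 regions. Without WT replicate 2 there were 10783 regions with 21.6% in promoters and 42.3% GC, and without WT replicate 1 there were 7813. Of the 12 strongest regions, at least 11 were still chosen under each of these rules. Those 12 were picked by strength in the same WT lists, so this outcome was close to fixed in advance. For the values that moved, beyond the number of lists, the cause was not tested.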

Other observations

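Beyond protein-coding genes, members lay within 57 of 3480 genes for long noncoding RNAs (1.64%), 29 of 3917 pseudogenes (0.740%) and 4 of 79 antisense RNA genes (5.06%). None lay at any of 326 microRNA genes or 287 small nucleolar RNA genes, and 4 lay at the 625 transfer RNA genes. These genes were taken without their promoters, and many are shorter than 1 member, so their shares are not comparable with those of protein-coding genes.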
